A study of Mus musculus with 8 samples.

Results

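The genes described here encode the machinery by which the sarcoplasmic reticulum of heart muscle takes up and releases calcium. They are the pump gene Atp2a2, the pump inhibitor genes Pln and Sln, the release channel gene Ryr2, the calcium store genes Casq1, Casq2 and Hrc, and the junction genes Trdn, Asph and Jph2. These 10 genes were chosen by symbol, with earlier results of these data known. All 10 were found among the 23100 rows of the gene table, of which the authors' software tested 12133. The isoform table held 40 rows for them and the table of transcription start site (TSS) groups held 15.

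In a heartbeat, calcium that enters through the sarcolemma opens ryanodine receptors in the facing membrane of the sarcoplasmic reticulum, and the calcium released there starts contraction. The SERCA pump then returns calcium to the store, and phospholamban slows the pump until it is phosphorylated. Calsequestrin holds calcium inside the store, triadin and junctin tie it to the ryanodine receptor, and junctophilin holds the reticulum close to the sarcolemma.

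Ventricles came from 4 DKO and 4 Ctrl mice aged 4.5 months, with the atria removed. DKO mice were Sox5 fl/fl and Sox6 fl/fl and positive for aMHC-Cre, a Cre recombinase under a promoter active in cardiomyocytes, and other cells of the ventricle are not its target. Ctrl mice carried the same floxed alleles of these SoxD transcription factor genes and were negative for aMHC-Cre, so effects of Cre itself and of the deletion cannot be told apart. The tables give 1 FPKM value (fragments per kilobase of transcript, scaled to the depth of the library) per genotype, pooled over its animals, so no value below has an error per animal and the depth is unknown. A feature is said to be called where its q was at most 0.05 in the authors' Cuffdiff test, and log2 ratios are DKO over Ctrl.

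Of the targeted genes, Sox6 had 1.69 FPKM in DKO, against 3.39 in Ctrl, and was called lower (q = 0.00158 in the authors' deposited table). Sox5 had 0.497 FPKM in DKO, against 0.369 in Ctrl, and was not tested. Over all tested genes 7.36% were called, 4.3% as higher and 3.06% as lower in DKO, and the median log2 ratio was -0.00420. An unadjusted p under 0.05 in the authors' deposited table was held by 16.5% of them. The FPKM of all listed genes, the markers below included, summed to 647204 in DKO and 692847 in Ctrl. Markers of other cells moved as well. Fibroblast markers summed to 819 FPKM in DKO and 640 in Ctrl, with 7 of 10 called higher, and macrophage markers to 356 and 224 FPKM, with 7 of 9 called higher. Cardiomyocyte markers summed to 76065 FPKM in DKO and 88987 in Ctrl, with none of 12 called, 4 at an unadjusted p under 0.05 in the authors' deposited table, and a median log2 ratio of -0.19. Myl2, the ventricular myosin light chain, was among the highest at 17014 FPKM in DKO and 20639 in Ctrl. Endothelial markers summed to 324 FPKM in DKO and 340 in Ctrl, with none of 8 called and 1 at an unadjusted p under 0.05 in the authors' deposited table. The part of these shifts in the values below was not tested. In whole ventricles, fewer cardiomyocytes and less of a transcript per cardiomyocyte cannot be told apart.

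Since the deleted genes encode factors that bind DNA, the 250 bases before the RefSeq start sites (build GRCm38.p6) of 6 members were searched on both strands for short motifs. Atp2a2, Sln, Trdn and Asph were not among them. These were the SOX core ACAAT, its variant ACAAAG, the E-box CANNTG bound by muscle helix-loop-helix factors, TATAAA and the GC box GGGCGG. The windows of 3 genes are printed, each in the direction of the gene. Casq1 is shown because it was the called member, Casq2 as its cardiac paralog, and Pln because it alone held a SOX-like match. Capitals mark SOX, E-box and TATA matches.
Casq1, chr1:172219896-172220145, minus strand: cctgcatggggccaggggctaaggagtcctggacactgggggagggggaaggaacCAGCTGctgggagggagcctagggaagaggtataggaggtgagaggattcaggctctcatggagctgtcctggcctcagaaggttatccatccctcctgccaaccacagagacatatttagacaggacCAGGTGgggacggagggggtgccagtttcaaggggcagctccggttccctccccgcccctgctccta
Casq2, chr3:102086165-102086414, plus strand: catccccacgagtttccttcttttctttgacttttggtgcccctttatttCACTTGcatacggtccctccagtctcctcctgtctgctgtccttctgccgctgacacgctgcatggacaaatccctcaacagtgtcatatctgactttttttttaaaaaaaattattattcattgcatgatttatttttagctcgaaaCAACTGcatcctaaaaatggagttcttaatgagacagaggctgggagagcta
Pln, chr10:53337436-53337685, plus strand: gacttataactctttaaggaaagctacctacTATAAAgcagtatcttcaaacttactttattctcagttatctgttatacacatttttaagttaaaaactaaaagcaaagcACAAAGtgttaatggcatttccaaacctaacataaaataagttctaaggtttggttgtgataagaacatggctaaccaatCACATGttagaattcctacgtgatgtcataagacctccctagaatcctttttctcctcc
The window of Casq1 held E-boxes that begin 195 and 67 bases before the start site, and that of Casq2 held E-boxes that begin 200 and 52 bases before it. The bases just after the windows of Casq1, Hrc and one of the Jph2 windows were not found in a GENCODE M21 transcript of the gene. Distances in these windows thus rest on the RefSeq start site alone. In Pln an ACAAAG begins 139 bases, an E-box 59 bases and a TATAAA 219 bases before the start site. None of the 7 windows, which belong to 6 genes because Jph2 has more than 1, held ACAAT, which 27.7% of all 32851 windows hold. The Jph2 windows overlap and share their E-box and GC box, so matches are counted by gene. An E-box stood in 6 of 6 genes, beside 66.2% of all windows. The variant ACAAAG stood in 1 of 6 genes, beside 16.5% of all windows, TATAAA in 1, beside 12.4%, and the GC box in 3, beside 32.7%. A match is a run of letters and not a site shown to be bound, and a window without one says nothing of the factor.

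Casq1, the calsequestrin form best known from skeletal muscle, was the single called member. It rose to 14.9 FPKM in DKO ventricles, against 10.8 FPKM in Ctrl, a 1.37-fold difference and a log2 ratio of 0.46, with q = 0.00158 in the authors' deposited table. The other 8 tested members had log2 ratios between -0.30 and -0.08 and none was called. Their q values ran between 0.0647 and 0.835 in the authors' deposited table, and 4 of the 8 had an unadjusted p under 0.05, as had 16.5% of all tested genes. So 1 of 9 tested members was called, beside 7.36% of all tested genes, and 8 of 9 had a ratio below 0, beside 51.1% of all tested genes. These counts describe a list chosen with earlier results of these data known. Sln was too low to be tested.

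**Figure D1:**
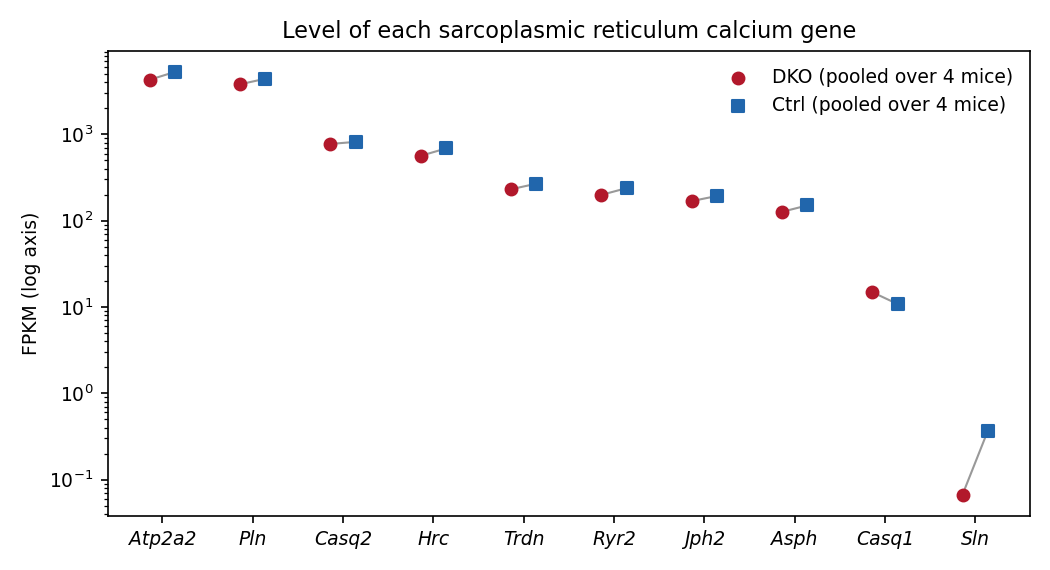
FPKM of the 10 genes on a log axis, with DKO as red circles left of Ctrl as blue squares, each pooled over 4 mice and without error bars. Casq1 is the gene with the higher value in DKO (14.9 against 10.8 FPKM), and levels span Atp2a2 at the top to Sln below 1 FPKM.

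Levels spanned several steps. Atp2a2 and Pln ranked 18 and 22 by mean FPKM among tested genes, Casq2 118, Hrc 153, Trdn 343, Ryr2 383, Jph2 446, Asph 586 and Casq1 5194. The order of the genes by FPKM, which is a level per length, was the same in DKO and in Ctrl. Without a value per animal, no neighbours in this order can be said to differ beyond their spread.

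Atp2a2 encodes SERCA2, the calcium pump of the cardiac reticulum, and is listed in the mm9 build at chr5:122902524-122952234. Its level was 4294 FPKM in DKO and 5297 FPKM in Ctrl. The Ctrl level was 1.23-fold the DKO level. The log2 ratio of -0.30 was the lowest among tested members, and 5.37% of all tested genes had a lower ratio. It was not called, with q = 0.382 in the authors' deposited table. The transcript of 998 codons, the length of the cardiac SERCA2a form, stood at 2630 FPKM in DKO and 3005 in Ctrl. It made up 61.2% of the gene's isoform FPKM in DKO and 56.7% in Ctrl. Its own log2 ratio was -0.19, so the gene value rests in part on 2 transcripts that were assembled and share a junction with it. Of these, the transcript of 4046 bases had 460 FPKM in DKO, against 810 FPKM in Ctrl, and that of 4177 bases had 1025 FPKM in DKO and 1275 in Ctrl. The transcript of 1044 codons, the length of the widely expressed SERCA2b form, had 92.3 FPKM in DKO, against 103 FPKM in Ctrl. It was 3.51% of the level of the 998-codon transcript in DKO and 3.43% in Ctrl. None of the isoforms was called, and Cuffdiff gave the 1044-codon transcript no test because it was marked as having low data.

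Pln, the gene of phospholamban, had 3806 FPKM in DKO and 4410 FPKM in Ctrl (log2 ratio -0.21), with q = 0.469 in the authors' deposited table. Its listed locus, chr10:52997887-53099657 in mm9, is shared with Gm9766, which had 5.63 FPKM in DKO, against 6.92 FPKM in Ctrl, and with Gm19395, which was below 1 FPKM in both. The transcript of 2353 bases carried 87.4% of the gene's isoform FPKM in DKO and 87.5% in Ctrl. Both annotated transcripts encode 52 codons. Every Pln isoform had a ratio below 0, between -0.28 and -0.17, and none was called.

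The ratio of inhibitor to pump transcripts is often quoted for this pair. Pln stood at 0.886 of the Atp2a2 level in DKO and 0.832 in Ctrl. Between the most abundant isoforms the order turned round, with 1.26 in DKO and 1.28 in Ctrl. The direction of this small shift thus depends on whether genes or main isoforms are read.

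Sln encodes sarcolipin, a pump inhibitor of atrial and skeletal muscle, and lies at chr9:53698058-53701656 in mm9. It had 0.0671 FPKM in DKO, against 0.367 FPKM in Ctrl, and was left untested in every table. Both levels are under 1 FPKM, and with 1 FPKM added to each the log2 ratio was -0.36 in place of -2.45. Some other atrial genes were also under 1 FPKM, with Myl7 at 0.140 FPKM in DKO, against 0.192 in Ctrl, and Bmp10 at 0.0364 and 0.0204 FPKM. Others were above 1 FPKM in both groups. Myl4 had 3.58 FPKM in DKO and 3.69 in Ctrl, and Nr2f2 3.76 and 3.56 FPKM. Stard10 had 18.4 FPKM in DKO and 19.2 in Ctrl, and Kcnj3 18.7 and 30.1 FPKM. The 9 atrial markers summed to 1349 FPKM in DKO and 522 in Ctrl, of which Nppa gave 1303 and 464 FPKM. Among 6 tested, Nppa and Dkk3 were called higher and Kcnj3 lower. Dkk3, Kcnj3, Myl4, Nr2f2 and Stard10 were named after their values were seen.

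Ryr2, the cardiac ryanodine receptor, is listed over 553843 bases at chr13:11645370-12199212 in mm9. Its level was 199 FPKM in DKO and 238 FPKM in Ctrl (log2 ratio -0.26), with q = 0.213 in the authors' deposited table. Among the 92 tested genes listed over more than 500 kb, Ryr2 included, the median log2 ratio was -0.10. Of these, 15.2% were called lower, beside 3.06% of all tested genes. At a limit of 200 kb, which takes in Trdn and Asph too, the median of 605 tested genes was -0.02. Of these 605, 41 were called lower and 23 higher. The same counts were 14 and 1 among the 92 genes, and 371 and 522 among all 12133 tested genes. Ryr2 was assigned 3 TSS groups. The group of the annotated full-length transcript had 111 FPKM in DKO, against 129 FPKM in Ctrl, with a ratio of -0.21. The other groups were at 32.8 and 54.6 FPKM in DKO, against 45.9 and 63.6 FPKM in Ctrl, with ratios of -0.49 and -0.22. No group was called, beside 4.94% of all tested groups. The annotated transcript of 16813 bases and 4966 codons held 43.6% of the isoform FPKM in DKO and 43.4% in Ctrl, and a shorter assembled transcript of 6344 bases held 27.5% and 26.7%. Assembled transcripts of 14592 and 16525 bases had 32.8 and 24.8 FPKM in DKO, against 45.9 and 25.5 FPKM in Ctrl, and another of 16728 bases was listed at 0 in both. None of the Ryr2 isoforms was called.

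Casq1 is listed at chr1:174140025-174150026 in mm9 and had 1 annotated transcript of 1874 bases and 405 codons, so its gene, isoform, TSS and coding sequence values were the same. Coding sequences were called in 4.64% of those tested. Casq1 was called in each table, with q values of 0.00158, 0.00312, 0.00223 and 0.00226 in the authors' deposited table of that level. Casq2, the calsequestrin of the heart, at chr3:101890433-101950435 in mm9, had 774 FPKM in DKO, against 819 FPKM in Ctrl (log2 ratio -0.08), with q = 0.835 in the authors' deposited table. Casq1 stood at 0.0192 of the Casq2 level in DKO and 0.0132 in Ctrl. The sum of both was 789 FPKM in DKO and 830 FPKM in Ctrl, so the rise of Casq1 by 4.03 FPKM stood beside a Casq2 difference of -44.6 FPKM.

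Because Casq1 is abundant in skeletal muscle, skeletal muscle genes were read beside it. The 11 listed summed to 1444 FPKM in DKO and 748 in Ctrl, nearly all of it Acta1, at 1409 and 697 FPKM. Acta1 was thus abundant in the ventricles of both groups, unlike the other genes of this list. Without Acta1 the sums were 34.2 FPKM in DKO and 51.0 in Ctrl. Of 5 tested, Acta1 was called higher, and Myl1 and Cacna1s, named after their values were seen, lower. Myl1 had 23.6 FPKM in DKO and 39.4 in Ctrl, and Cacna1s 4.34 and 6.48 FPKM. Tnni2 had 2.86 FPKM in DKO and 2.48 in Ctrl and Mylpf 1.86 and 1.47 FPKM, and neither was called. Among the untested genes, Tnnt3 had 0.728 FPKM in DKO and 0.369 in Ctrl and Tnnc2 0.321 and 0.340 FPKM. Myh1, Myh2, Myh4 and Pvalb, also untested, did not exceed 0.213 FPKM in either group and together came to 0.458 FPKM in DKO and 0.459 in Ctrl. The part of skeletal muscle RNA in the Casq1 difference was not tested. The skeletal pump and channel genes Atp2a1 (0.759 FPKM in DKO and 0.211 in Ctrl) and Ryr1 (0.0797 and 0.0194 FPKM), chosen after their values were seen, were not tested.

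Hrc encodes the histidine-rich calcium-binding protein of the reticulum lumen and is listed at chr7:52589904-52594342 in mm9. It had 564 FPKM in DKO, against 686 FPKM in Ctrl, where it was 1.22-fold the DKO level (log2 ratio -0.28). With p = 0.00525 and q = 0.0647 in the authors' deposited table it came closest to a call among the members with a ratio below 0. At a q under 0.1, which 9.56% of all tested genes met, Hrc joined Casq1. The annotated transcript of 2430 bases and 738 codons had 230 FPKM in DKO, against 298 FPKM in Ctrl, a ratio of -0.37. A second TSS group with 3 unannotated transcripts had 333 FPKM in DKO, against 388 FPKM in Ctrl, a ratio of -0.22. Its main transcripts, of 1859 and 1672 bases, had 173 and 147 FPKM in DKO, against 211 and 163 FPKM in Ctrl. Neither group and none of the isoforms was called.

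Trdn encodes triadin, which anchors calsequestrin at the release channel, and is listed over 393521 bases at chr10:32802995-33196515 in mm9, a locus it shares with D830005E20Rik. Its level was 231 FPKM in DKO and 268 FPKM in Ctrl (log2 ratio -0.21), with q = 0.311 in the authors' deposited table. Most of it was an assembled transcript of 1112 bases, at 205 FPKM in DKO and 225 in Ctrl, or 88.5% and 84.0% of the isoform FPKM. The annotated long transcript of 4514 bases and 693 codons had 21.2 FPKM in DKO, against 31.1 FPKM in Ctrl. Its ratio of -0.55 was lower than that of the short transcript (-0.14), but the difference between them was not tested. The long transcript had p = 0.00450 and q = 0.110 in the authors' deposited table, and the coding sequence it carries a q of 0.0813. A transcript of 4484 bases had 1.57 FPKM in DKO, against 6.76 FPKM in Ctrl, and was not called (it holds under 10% of the gene and was named after its values were seen). One Trdn TSS group held 98.4% of the signal in DKO and 98.1% in Ctrl. It had 228 FPKM in DKO and 263 in Ctrl, a ratio of -0.21, and was not called.

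Asph has several products. Long ones are aspartate beta-hydroxylase, an enzyme of the endoplasmic reticulum, and short ones, junctin among them, lack the catalytic part and sit in the reticulum membrane. The gene, listed at chr4:9196464-9596309 in mm9, had 127 FPKM in DKO, against 150 FPKM in Ctrl (log2 ratio -0.25), with q = 0.152 in the authors' deposited table. Among its 14 isoforms, the 2 annotated ones of 725 and 741 codons summed to 1.42 FPKM in DKO and 2.07 FPKM in Ctrl. The 8 annotated isoforms of 207 to 310 codons summed to 102 FPKM in DKO and 116 FPKM in Ctrl. These 8 held 80.6% of the isoform FPKM in DKO and 77.3% in Ctrl, and 4 assembled isoforms without a codon count held 18.3% and 21.4%. Split by transcript length over all 14, the 9 of 1761 to 2954 bases held 86.6% in DKO and 87.2% in Ctrl, so the direction of the shift in share depends on the split. The 5 of 6441 to 6688 bases summed to 16.9 FPKM in DKO and 19.2 FPKM in Ctrl.

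Within Asph the isoforms did not share a direction. The most abundant, of 1761 bases and 207 codons, had 57.9 FPKM in DKO, against 79.9 FPKM in Ctrl, with a ratio of -0.46, p = 0.00985 and q = 0.188 in the authors' deposited table. Its share of the isoform FPKM was 45.7% in DKO and 53.2% in Ctrl. The transcript of 2690 bases and 272 codons had 21.9 FPKM in DKO, against 19.2 FPKM in Ctrl, or 17.3% and 12.8%. The largest ratio, 1.95, belonged to a minor transcript, named after its values were seen, of 2519 bases and 215 codons at 6.39 FPKM in DKO and 1.65 in Ctrl, with q = 0.577 in the authors' deposited table. Of 11 tested isoforms, 6 had ratios above 0 and 5 below, and none was called. The 2 TSS groups had ratios of -0.25 and -0.17, and one of them carried 94.7% of the signal in DKO and 94.9% in Ctrl.

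Jph2, the junctophilin of heart muscle, is listed at chr2:163161978-163223729 in mm9. It had 169 FPKM in DKO, against 193 FPKM in Ctrl (log2 ratio -0.20), with p = 0.0337 and q = 0.237 in the authors' deposited table. Its transcripts of 4235 and 4155 bases both encode 696 codons. They stood at 145 and 23.9 FPKM in DKO, against 164 and 29.5 FPKM in Ctrl, with ratios of -0.18 and -0.30.

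**Figure D2:**
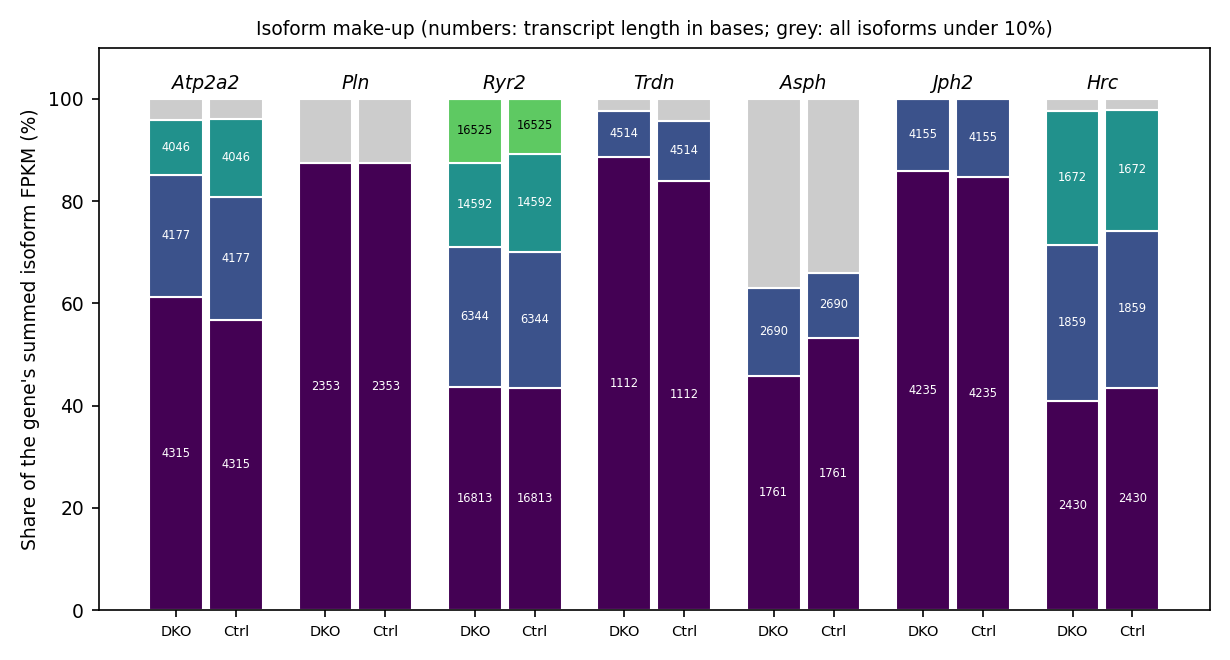
Share of each gene's summed isoform FPKM (%), with DKO left of Ctrl, for the 7 genes with more than 1 isoform. Numbers in the bars are transcript lengths in bases and grey is the sum of isoforms under 10% in both genotypes. The 4315-base Atp2a2 transcript had 61.2% in DKO and 56.7% in Ctrl, and the 1761-base Asph transcript 45.7% and 53.2%.

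Across levels, 34 of the 40 isoforms were tested, and 1 of them, that of Casq1, was called, beside 3.02% of all tested isoforms. Of these 34, 27 had ratios below 0. Of the 7 above 0, 6 belonged to Asph and 1 was Casq1. All 13 tested TSS groups other than that of Casq1 had ratios below 0, and none of them was called. Isoforms of a gene share reads that the authors' model divides, so their values are not independent of each other.

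**Figure D3:**
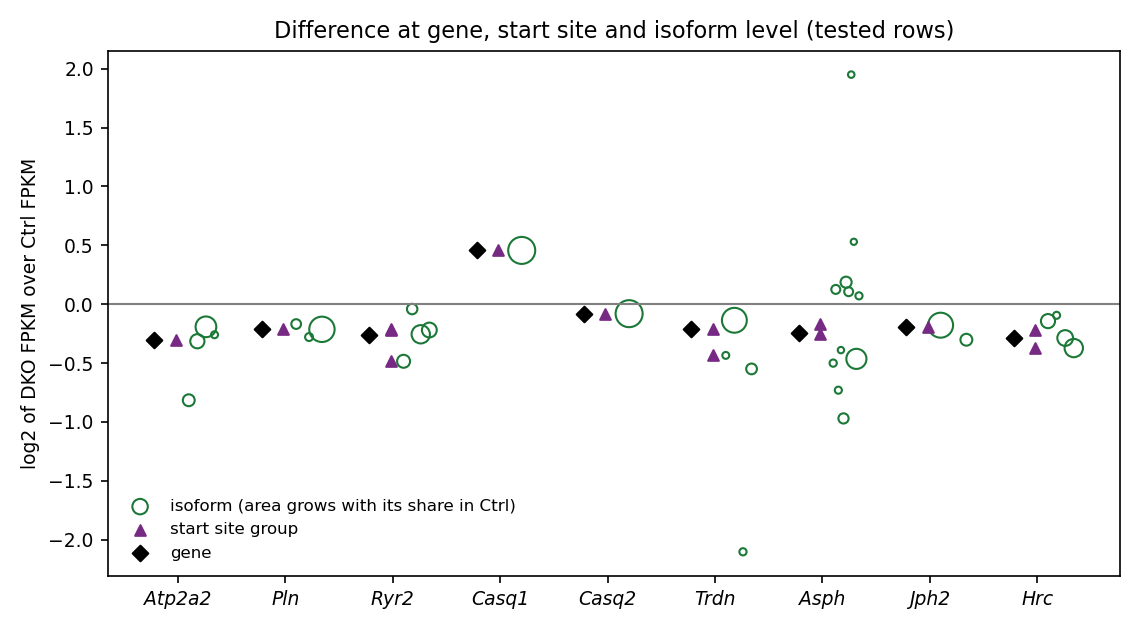
Log2 ratio of DKO over Ctrl for tested rows of 9 genes, with genes as black diamonds, TSS groups as purple triangles and isoforms as green circles that grow with their share in Ctrl. Casq1 lies above 0 at 0.46 in each table, and the Asph isoforms spread on both sides of 0 up to 1.95.

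Further genes of cardiac calcium handling were read in 4 lists. The counts below stand beside 7.36% called and 16.5% at an unadjusted p under 0.05 in the authors' deposited table, over all tested genes. Of 22 tested partners of the reticulum, 1 was called, lower in DKO, with a median log2 ratio of -0.05 and 5 at an unadjusted p under 0.05 in the authors' deposited table. The called gene was Jph1, a second junctophilin, at 5.28 FPKM in DKO and 7.19 in Ctrl, 1.36-fold lower with q = 0.00158 in the authors' deposited table. The 3 most abundant partners were not called. S100a1, a calcium sensor that binds the pump and the release channel, had 1328 FPKM in DKO, against 1218 FPKM in Ctrl. Sarcalumenin (Srl), a luminal calcium-binding protein, had 426 FPKM in DKO, against 488 FPKM in Ctrl. Tmem38a, the TRIC-A potassium channel of the reticulum, had 359 FPKM in DKO, against 439 FPKM in Ctrl, with q = 0.0511 in the authors' deposited table.

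Kinases, phosphatases and anchors that control the pump and channel held no called gene among 22 tested, and 1 had an unadjusted p under 0.05 in the authors' deposited table. Their median ratio was -0.05. Dmpk, a kinase of muscle, had 342 FPKM in DKO, against 361 FPKM in Ctrl. The protein kinase A subunit gene Prkar1a had 273 FPKM in DKO and 257 in Ctrl, and the phosphatase gene Ppp1ca 195 and 188 FPKM. Of 18 tested sarcolemmal calcium genes, Cacna1h, a T-type calcium channel, was called, at 1.41 FPKM in DKO and 0.460 in Ctrl, 3.07-fold higher with q = 0.00158 in the authors' deposited table. The median of that list was -0.00256, and 3 of its genes had an unadjusted p under 0.05 in the authors' deposited table. Rrad, an inhibitor of calcium channels, had 194 FPKM in DKO, against 165 FPKM in Ctrl. Cav3, the muscle caveolin, had 72.6 FPKM in DKO and 76.4 in Ctrl, and Slc8a1, the sodium-calcium exchanger, 55.5 and 64.7 FPKM. Rrad, Cav3 and Slc8a1 were not called. Their unadjusted p-values in the authors' Cuffdiff test were 0.0146, 0.448 and 0.02235, in that order. The 10 mitochondrial calcium genes had no call, 1 unadjusted p under 0.05 in the authors' deposited table and a median of -0.05. Vdac1 (667 FPKM in DKO and 758 in Ctrl), Mfn2 (333 and 346 FPKM) and Vdac2 (323 and 332 FPKM) were the most abundant of them.

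The median ratio of the 9 tested reticulum genes, -0.21, stood beside -0.19 for the cardiomyocyte markers and -0.00420 for all tested genes. The 3 values were not compared by a test. Of the members, 8 lay at a mean of at least 100 FPKM. Among the 793 tested genes at that level, a limit chosen after the values were seen, the median was -0.10, 74.1% had ratios below 0, 32.9% had an unadjusted p under 0.05 in the authors' deposited table and 13.7% were called.

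**Figure D4:**
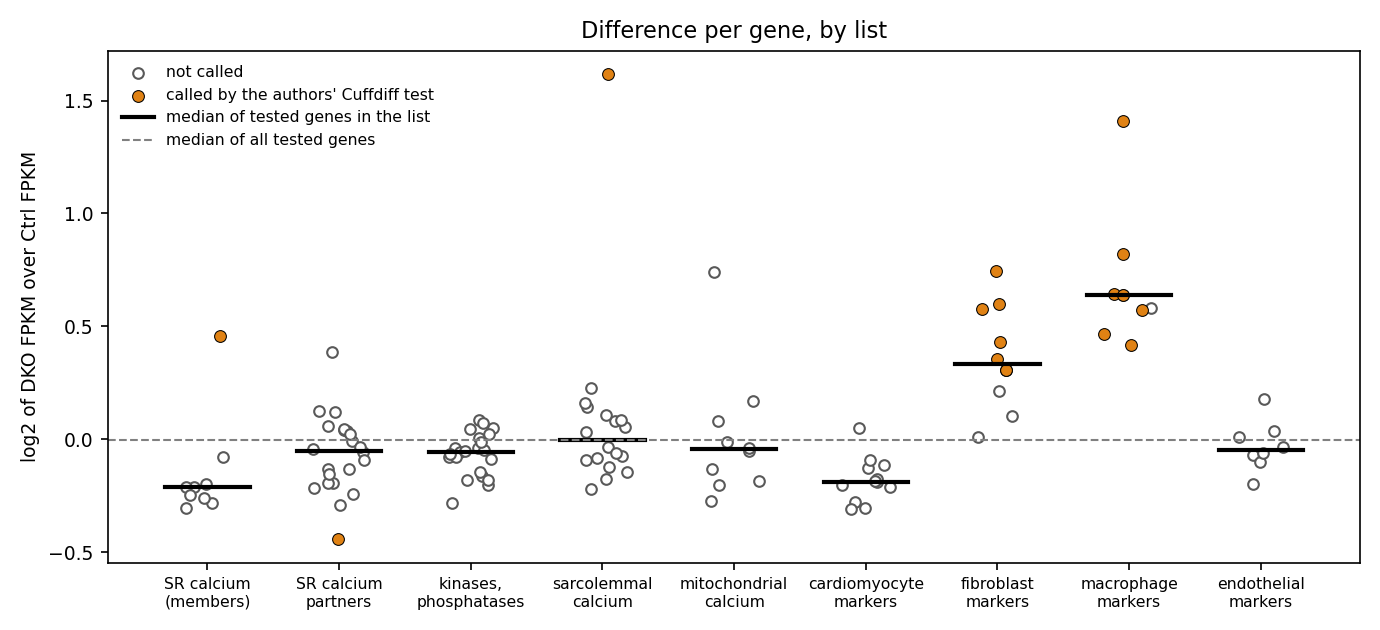
Log2 ratio of DKO over Ctrl for each tested gene by list, with called genes filled, the list's median as a bar and the median of all tested genes as a dashed line. The reticulum genes have a median of -0.21 with Casq1 apart at 0.46, the cardiomyocyte markers -0.19, the fibroblast markers 0.33 and the macrophage markers 0.64.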

How the data were processed

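RNA was extracted with Trizol from frozen ventricles and sequenced as single-end TruSeq libraries, per the labels' protocols. The authors used TopHat2 2.0.9, Cufflinks 2.1.1, Cuffdiff 2.1.1 and build mm9, per the submitters' processing notes. Annotation and settings were not given in the sources used here. FPKM values as deposited are 1 per genotype, per the file headers, so no test across animals could be made. The p-values and q-values are those of the authors' Cuffdiff comparison, per the file headers. The deposited log2 column of the subset table is Ctrl over DKO, so log2 ratios were recomputed from FPKM as DKO over Ctrl (largest difference apart from sign 9.72e-06). Benjamini-Hochberg adjustment of the deposited p-values over 12133 genes gave the q-values back within 5.18e-07. Listed starts count from 0 and were shifted to count from 1. A listed locus can hold several genes.

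Members and lists were chosen with earlier results of these data known. The text names all members, isoforms and TSS groups that were called or held at least 10% of a gene's FPKM, called genes and the 3 with the highest FPKM of each pathway list, and, by that rule, up to 3 markers of a list. Where a gene has a single TSS group, that group has the gene's FPKM and was not always given apart. All skeletal muscle genes of that list beyond Acta1, the annotated minor isoforms of Atp2a2, Pln and Asph and the neighbours of a locus were added after their values were seen. So were others marked in the text. Of 14 mitochondrial symbols, 10 were found, and of 10 macrophage symbols 9. Codon counts came from GENCODE M21 through RefSeq names, and promoters from RefSeq, where 6 of 10 members matched. The counting functions were tested on simulated data. Alternatives covered q, fold and FPKM limits, a pseudocount of 1 FPKM, rescaling and other feature levels. Python 3.11.15, pandas 2.3.3, numpy 2.4.6 and matplotlib 3.10.9 were used.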

Additional observations from a re-analysis of the deposited data

How the results depend on the processing

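No paired analysis was possible because the tables hold 1 pooled value per genotype, and for the same reason no animal could be left out. Adding 1 FPKM and rescaling have no test of their own, and they turned the direction of none of the 10 members. That outcome was fixed in advance and is no check. The same amount added to both groups cannot turn a direction. Rescaling took away the median of all tested genes, -0.00420, which is smaller in size than any member's ratio. Main isoforms, TSS groups and coding sequences of 7 tested members gave 17 values that differ from the gene's, and 17 of 17 kept its direction and stayed uncalled. The 17 are not separate checks. For Atp2a2, Ryr2, Asph and Hrc the main isoform and the main coding sequence have the same value. Apart from the Trdn coding sequence, each value is also a large part of the gene's own, so a shared direction is partly built in. The transcript of that Trdn coding sequence held 9.18% of the gene's isoform FPKM in DKO and 11.6% in Ctrl. For Casq1, Casq2 and Sln the values at these levels are the gene's own and add no check. The size moved by over 1.5 times for Atp2a2 (-0.19 with its main isoform), Trdn (-0.55 with its coding sequence, -0.14 with its main isoform), Asph (-0.46 with its main isoform) and Sln (-0.36 with the pseudocount). At a q under 0.1, 2 members were called in place of 1, the other being Hrc. The members' median of -0.2126 was -0.2123 with 1 FPKM added, -0.2084 after rescaling to a median of 0 and -0.1925 from main isoforms. From main isoforms, Pln over Atp2a2 was 1.26 in DKO and 1.28 in Ctrl, Sln over Atp2a2 2.55e-05 and 1.22e-04, and Casq2 over Ryr2 8.94 and 7.92, in place of 0.886 and 0.832, 1.56e-05 and 6.93e-05, and 3.90 and 3.44 from genes. The sarcolemmal list had 0 calls among genes at 1 FPKM or more in both groups, because Cacna1h is at 0.460 FPKM in Ctrl. No FPKM interval was computed, since the depth is unknown.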
